A study of Mus musculus with 2 samples.

Results

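Cadherins and protocadherins are calcium-dependent adhesion proteins of the cell surface. The 60 genes described here are those of the 16103 in the deposited gene table whose symbol is Cdh followed by a number, starts with Pcdh, or is Celsr1 to Celsr3 or Fat1 to Fat4. They comprise 18 numbered cadherins, 23 entries of the clustered protocadherins (Pcdha, Pcdhb and Pcdhg), 12 non-clustered protocadherins, 3 Celsr genes and 4 Fat genes. Of these, 54 had a mean of 0.5 or more RPKM (reads scaled by gene length in kilobases and by the library total) over both libraries, and summaries refer to these unless stated. The cells were GFP-positive neural progenitors sorted at embryonic day 15 from the cortex of ICR mice, an outbred stock, that had received a plasmid by in utero electroporation at embryonic day 13. The group TRPM2-KD carried a Trpm2 knockdown plasmid, named TRPM2-sh1 in the sample's description, and the group Control carried a control plasmid. Both are labelled as warm, and each is 1 library. Neither the temperature nor the number of embryos pooled is stated in the labels. The study asked what Trpm2, which encodes a warmth-activated calcium-permeable channel, does in the developing brain in hyperthermia by way of β-catenin, and β-catenin is also the protein that binds the cytoplasmic tails of classical cadherins.

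In classical cadherins, the outermost extracellular repeats of proteins on facing cells bind each other, and the cytoplasmic tail is tied to actin by β-catenin and α-catenin. N-cadherin, encoded by Cdh2, holds the belt of adherens junctions at the ventricular surface where the endfeet of radial glia meet. The clustered protocadherins are encoded by neighbouring variable exons that each neuron uses in its own combination, giving it a surface identity for self-avoidance. Celsr and Fat proteins are giant cadherins of the planar cell polarity and Dachsous-Fat pathways.

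The libraries held 20791236 counted reads in TRPM2-KD and 26209192 in Control. Trpm2 had 155 reads in TRPM2-KD and 241 in Control, or 0.604 and 0.745 RPKM, a ratio of 0.811 with a 95% counting interval from 0.658 to 0.996. Throughout, a ratio is the RPKM in TRPM2-KD divided by that in Control, and its interval is computed from the 2 read counts by the exact binomial method of Clopper and Pearson. It covers counting error only. As each group is a single library, nothing checks the differences against replicates and no test of the conditions was possible. The knockdown construct cannot be told apart from lower Trpm2, and fewer cells of a type cannot be told apart from less RNA per cell. Nor can a difference between the embryos used for each group be told apart from the knockdown. All 14 radial glia markers, Sox2 and Pax6 among them, were detected, but so were all 15 neuron markers, which summed to 1876 RPKM in TRPM2-KD and 2057 in Control, while the radial glia list summed to 719 RPKM in TRPM2-KD and 659 in Control. RNA of neurons was thus present in both sorts.

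Of the 10 members that were at least 1.5-fold higher in TRPM2-KD, 5 were type II classical cadherins and 5 beta protocadherins. To show the start of these genes, the 250 bases before the annotated start are printed for the 4 of these type II genes with a mean of 1 or more RPKM. The sequences are from RefSeq on build GRCm38.p6 (the authors' build was mm9), 5′ to 3′ on the gene's strand, with the last base next to the start, and capitals mark matches to 2 of the 3 motifs searched. Where a gene has several annotated starts, the first listed was used.
Cdh22 at chr2:165234738-165234987, minus strand: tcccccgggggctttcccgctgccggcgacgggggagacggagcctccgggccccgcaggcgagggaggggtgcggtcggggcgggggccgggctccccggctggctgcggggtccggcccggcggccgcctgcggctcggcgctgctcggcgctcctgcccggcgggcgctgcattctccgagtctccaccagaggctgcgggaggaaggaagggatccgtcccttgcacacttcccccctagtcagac
Cdh12 at chr15:21111202-21111451, plus strand: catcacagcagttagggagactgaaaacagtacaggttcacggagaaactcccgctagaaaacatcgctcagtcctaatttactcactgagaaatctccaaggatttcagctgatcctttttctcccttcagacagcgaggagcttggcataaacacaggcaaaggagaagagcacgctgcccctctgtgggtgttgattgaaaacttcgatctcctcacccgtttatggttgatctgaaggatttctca
Cdh20 at chr1:104768270-104768519, plus strand: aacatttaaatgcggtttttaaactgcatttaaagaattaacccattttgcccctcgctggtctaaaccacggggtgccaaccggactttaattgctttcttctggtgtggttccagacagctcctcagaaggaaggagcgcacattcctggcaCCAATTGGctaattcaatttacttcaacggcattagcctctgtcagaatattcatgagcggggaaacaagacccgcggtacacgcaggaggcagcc
Cdh7 at chr1:109982650-109982899, plus strand: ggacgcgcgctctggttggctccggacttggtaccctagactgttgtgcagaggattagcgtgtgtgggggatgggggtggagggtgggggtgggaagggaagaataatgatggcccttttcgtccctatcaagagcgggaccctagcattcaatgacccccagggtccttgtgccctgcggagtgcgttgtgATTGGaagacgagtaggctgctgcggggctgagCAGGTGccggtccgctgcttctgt

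These 4 starts had little in common. The Cdh22 stretch was 77.6% G or C with 30 CpG dinucleotides, while Cdh12 had 46.8% and 7, Cdh20 47.6% and 10, and Cdh7 60.8% and 13. The median over all 32851 mouse promoters of the RefSeq table was 52.4% G or C and 6 CpG. CCAAT, searched on both strands, matched at 2 overlapping places in Cdh20 and once in Cdh7, and in none of the stretches of Cdh22 and Cdh12. It was found in 13 of the 26 members with a RefSeq promoter entry and in 33.8% of all promoters of the same length. The E-box CAGGTG, the core bound by Snail and Zeb factors, was found in Cdh7 alone of the 4, in 4 of the 26 members and in 17.2% of all promoters. The TCF/LEF core CTTTGAT, where β-catenin partners bind, was found in 0 of the 26 and in 3.21% of all. At so low a share, 0 of 26 says little. The type I cadherins and the clustered protocadherins, the beta genes among them, are not among the 26 and were not searched. A match is a string of letters and not evidence of binding, and its lack in 250 bases says nothing of sites elsewhere.

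Most members differed little between the libraries, and those that differed were mostly higher in TRPM2-KD. At least 1.5-fold higher were 10 of the 54 members (18.5%), against 7.85% of all 15187 genes above the same filter. At least 1.5-fold lower was 1 member (1.85%), against 6.6% of all genes, and 43 lay between. Counting all 60 listed members, 13 were higher and 1 lower, where the shares of all listed genes were 9.54% and 7.99%. Cdh3, Cdh9 and Pcdhb13 passed the filter only through the library where they were higher, and without them 8 of 51 members (15.7%) were higher and 0 lower, where all genes with 0.5 or more RPKM in each library gave 6.39% and 5.17%. Ratios above 1 were seen for 38 members (70.4%), against 49.4% of all genes. The counting interval lay wholly above 1 for 22 members (40.7%) and wholly below 1 for 6 (11.1%), where the shares of all genes were 28.1% and 28.2%. The median log2 ratio was 0.13 for the members and -0.0037 for all genes.

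The members past 1.5-fold were all of moderate depth. All 11 members past 1.5-fold lay among the 30 with 50 to 1000 reads over both libraries, 10 higher (33.3%) and 1 lower (3.33%), where all 6488 genes of that depth gave 14.9% and 12.9%. For the genes of that depth with a length of 3 kb or more the shares were 13.1% and 8.59%. Without Cdh3, Cdh9 and Pcdhb13, 8 of 27 members of that depth (29.6%) were higher and 0 lower, against 13.1% and 10.9% of all genes of that depth with 0.5 or more RPKM in each library. Of the 24 members with more than 1000 reads, 0 were past 1.5-fold in either direction, and among all genes of that depth 0.752% were higher and 0.573% lower. Summed over members, the level was 398.9 RPKM in TRPM2-KD and 377.0 RPKM in Control.

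**Figure D1:**
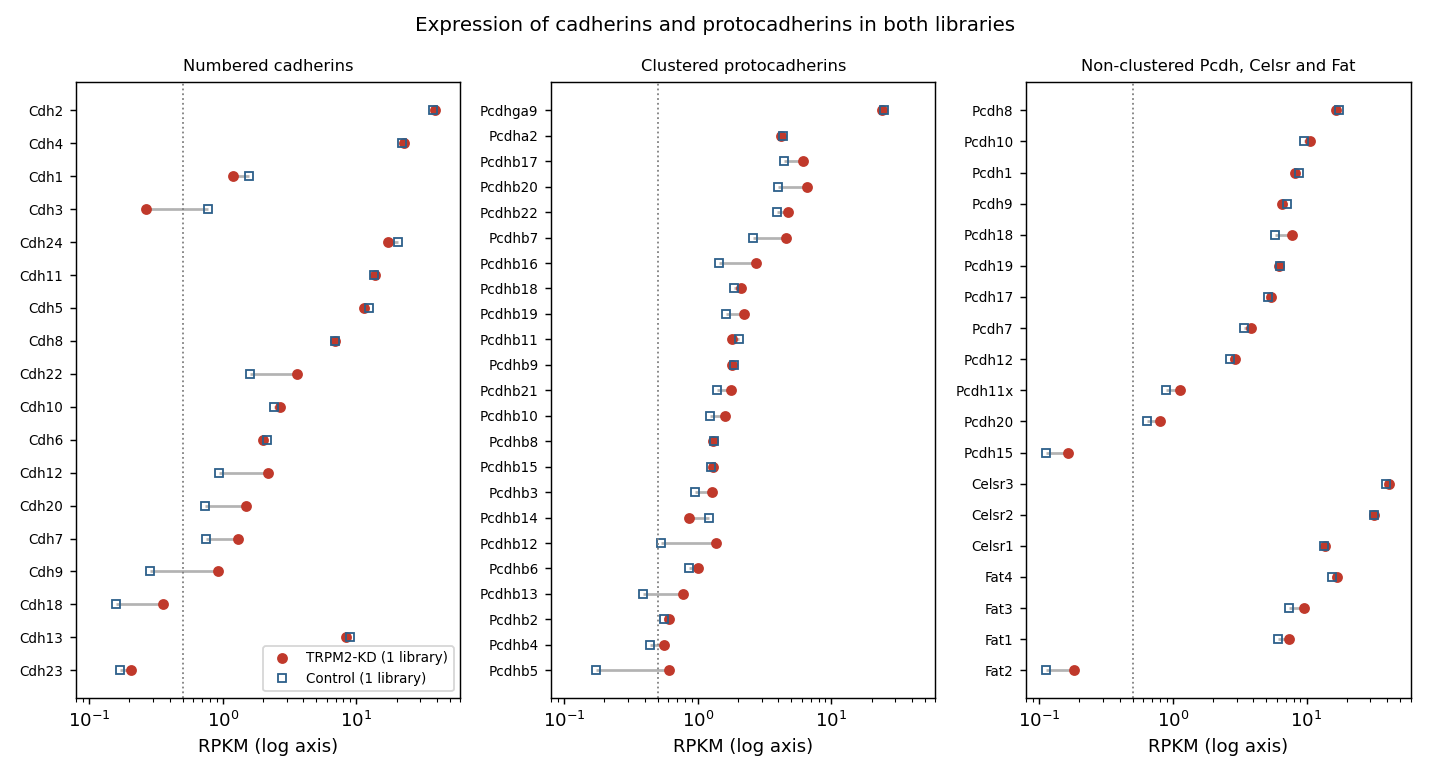
Level of each of the 60 members in RPKM (log axis), 1 panel for each of 3 groups of genes, with filled red circles for the TRPM2-KD library and open blue squares for the Control library. The dotted line marks 0.5 RPKM. Celsr3, Cdh2 and Celsr2 stood highest in both libraries, and the beta protocadherins all lay below 7 RPKM.

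The type I classical cadherins, the family of E- and N-cadherin, split by level. Cdh2 (N-cadherin) had 38.9 RPKM in TRPM2-KD and 37.3 in Control, from 6532 and 7896 reads, and was second in level only to Celsr3 among the members in both libraries. Its ratio was 1.04 (1.01 to 1.08). Cdh4, or R-cadherin, a close relative that can bind N-cadherin, had 22.8 RPKM in TRPM2-KD and 22 in Control, with a ratio of 1.03 (0.988 to 1.08). Both of these abundant cadherins were thus within a few percent of equal.

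The scarce type I members were lower in TRPM2-KD. Cdh1 (E-cadherin, the epithelial cadherin) had 1.2 RPKM in TRPM2-KD from 114 reads and 1.57 RPKM in Control from 188, a ratio of 0.764 (0.60 to 0.970). Cdh3 (P-cadherin) had 0.266 RPKM from 22 reads in TRPM2-KD and 0.777 RPKM from 81 reads in Control, a ratio of 0.342 (0.203 to 0.554), the lowest of all members. The 2 genes are neighbours on mouse chromosome 8. Cdh3 passed the filter through Control alone, with a mean of 0.521 RPKM, and was the member just inside it. Pcdhb4, at a mean of 0.498 RPKM, was the one just outside. Choroid plexus markers, which belong to an epithelium, summed to 315 RPKM in TRPM2-KD and 441 in Control, with 2 of 9 above and 7 below equal. Most of that sum was Ttr, with 283 RPKM in TRPM2-KD and 403 in Control. Meningeal fibroblast markers summed to 84.8 RPKM in TRPM2-KD and 99.8 in Control, with 4 of 10 above and 6 below. The part of choroid plexus and meningeal cells in the values of Cdh1 and Cdh3 was not tested.

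Type II cadherins share the classical tail but use a different adhesive interface, and are expressed in patterns that differ between brain regions and neuron groups. The abundant members were near equal or slightly lower, and most of the scarce ones were higher in TRPM2-KD. Of 11 above the filter, 8 had a ratio above 1 and 3 below, and 5 were at least 1.5-fold higher (45.5%, against the 7.85% of all genes) with 0 lower. Those 5 were Cdh22, Cdh12, Cdh20, Cdh7 and Cdh9. The type II genes with 50 to 1000 reads numbered 6, and 5 of them were at least 1.5-fold higher (83.3%, against 14.9% of all genes of that depth). The other one was Cdh6. Cdh9 passed the filter through TRPM2-KD alone. Without it, 4 of 10 type II genes (40.0%) were at least 1.5-fold higher, and 4 of the 5 with 50 to 1000 reads (80.0%), where the shares of all genes with 0.5 or more RPKM in each library were 6.39% and 13.1%.

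Cdh22, or pituitary and brain cadherin, had 276 reads and 3.58 RPKM in TRPM2-KD against 154 reads and 1.59 RPKM in Control. The ratio was 2.26 (1.85 to 2.77). Cdh12, also known as brain cadherin, had 254 reads and 2.16 RPKM in TRPM2-KD against 139 reads and 0.939 RPKM in Control, a ratio of 2.30 (1.87 to 2.85). Both were higher in the library with fewer reads in total, in raw counts as well as in RPKM.

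Cdh20 had 1.5 RPKM in TRPM2-KD and 0.731 in Control, from 125 and 77 reads, a ratio of 2.05 (1.53 to 2.75). Cdh7 had 1.31 RPKM in TRPM2-KD and 0.751 in Control, from 233 and 169 reads, a ratio of 1.74 (1.42 to 2.13). Cdh20 and Cdh7 lie on chromosome 1 with 21 protein-coding genes between them. Cdh9, a synaptic cadherin of the hippocampus, had 0.925 RPKM from 62 reads in TRPM2-KD and 0.284 RPKM from 24 reads in Control, a ratio of 3.26 (2.0 to 5.46). Its exons overlap another annotated gene, and since the treatment of strand is not given in the sources used here, its count is uncertain. Cdh18, below the filter, had 34 reads in TRPM2-KD and 19 in Control, with a ratio of 2.26 (1.3 to 4.19).

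The type II genes with over 1000 reads gave narrow intervals. Cdh24 had 17.1 RPKM in TRPM2-KD and 20.5 in Control, a ratio of 0.836 (0.770 to 0.907). Cdh11 (osteoblast cadherin, also of mesenchyme and brain) had 13.8 RPKM in TRPM2-KD and 13.6 in Control, a ratio of 1.01 (0.938 to 1.09). Cdh8, with 6.94 RPKM in TRPM2-KD and 6.91 in Control, was as close to equal, and Cdh10, with 2.67 in TRPM2-KD and 2.41 in Control, had a ratio of 1.11 (0.985 to 1.24). Cdh6, with 257 reads over both libraries, had 2.01 RPKM in TRPM2-KD and 2.13 in Control, with an interval from 0.730 to 1.22.

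Cdh5 (VE-cadherin) is the adhesion molecule of endothelial junctions, and its presence at 11.4 RPKM in TRPM2-KD and 12.5 in Control shows vascular RNA in both sorts. Its ratio was 0.913 (0.839 to 0.994). All 15 endothelial markers were detected in both libraries and summed to 136 RPKM in TRPM2-KD and 163 in Control, with 4 above and 11 below equal. Cldn5 had 60.6 RPKM in TRPM2-KD and 76.7 in Control, while Kdr went the other way with 12.3 RPKM in TRPM2-KD and 11.1 in Control. The part of vascular cells in the Cdh5 value was not tested.

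Neighbouring type II genes on chromosome 15 differed in their ratios. Cdh6, Cdh9, Cdh10, Cdh12 and Cdh18 follow one another there, with 1 protein-coding gene before Cdh18 and 0 between the others. In that order their ratios were 0.943, 3.26, 1.11, 2.30 and 2.26. On chromosome 8, Cdh8, Cdh11 and Cdh5 follow one another with 1.01, 1.01 and 0.913. Of the 5 type II genes past 1.5-fold, Cdh12 alone spans more than 300 kb. The 179 other protein-coding genes of such a span with 50 to 1000 reads, members left out, were at least 1.5-fold higher in 11.7% of cases and lower in 6.7%, with a median log2 ratio of 0.09. Over all 18 numbered cadherins listed, 16 passed the filter, 5 were at least 1.5-fold higher and 1 lower, and the median log2 ratio was 0.03. Cdh13 (T-cadherin, held by a lipid anchor and without a cytoplasmic tail) had 8.39 RPKM in TRPM2-KD and 8.88 in Control, a ratio of 0.945 (0.891 to 1.00). Cdh23, the tip-link cadherin of inner ear hair cells, was below the filter with 73 reads in TRPM2-KD and 76 in Control, a ratio of 1.21 (0.866 to 1.69).

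**Figure D2:**
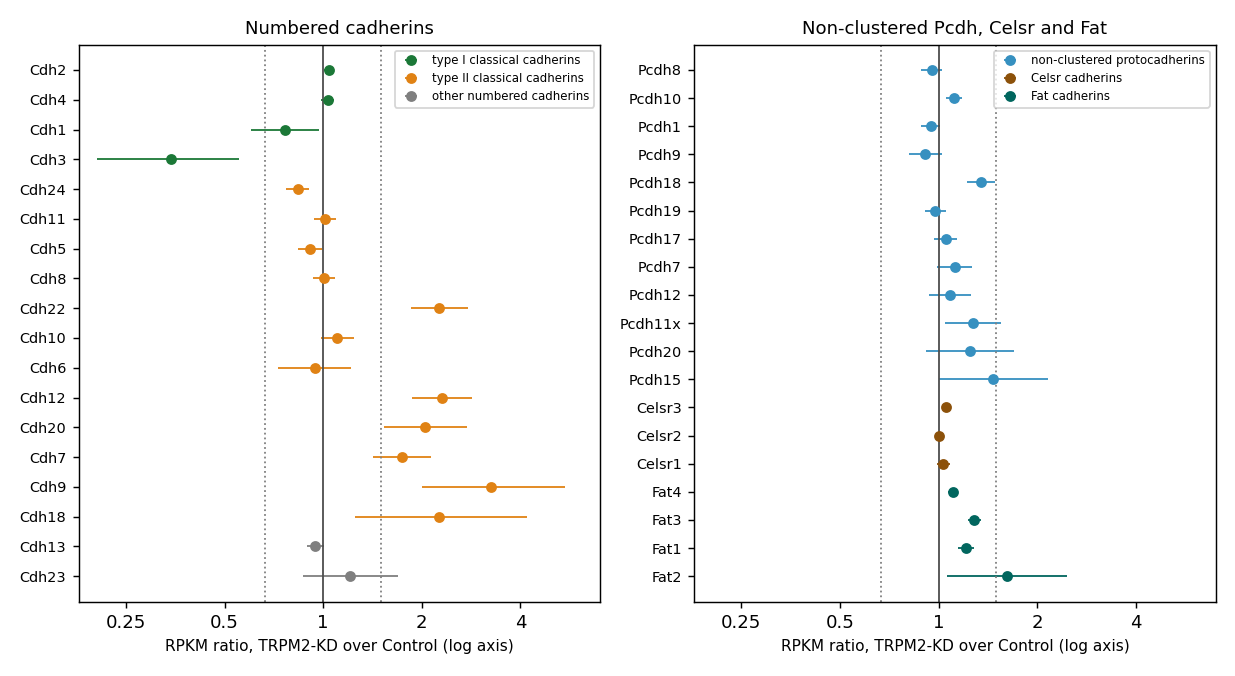
Ratio of RPKM in TRPM2-KD to that in Control (log axis) for the numbered cadherins and for the non-clustered protocadherins with Celsr and Fat, with horizontal bars for the 95% counting intervals of 1 library per group. The solid line marks equal levels and dotted lines mark 1.5-fold. Cdh9, Cdh12, Cdh22, Cdh20 and Cdh7 lay beyond the upper dotted line and Cdh3 beyond the lower one, and Cdh18 and Fat2, beyond the upper one too, had a mean under 0.5 RPKM.

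The beta protocadherins, each encoded whole by its own gene, as a class had more RNA in TRPM2-KD. Of 21 listed, 19 passed the filter, 15 of these had a ratio above 1 (78.9%, against 51.2% of all genes with 50 to 1000 reads) and 4 below. Their median log2 ratio was 0.35, or 0.21 on log2(RPKM + 1). The reads of the 19 pooled, 3410 in TRPM2-KD and 3193 in Control, gave a ratio of 1.35 (1.28 to 1.41), and their levels summed to 44.4 RPKM in TRPM2-KD and 33.4 in Control. At least 1.5-fold higher were 5 of the 19 (26.3%) and 0 were lower, against 14.9% and 12.9% of all genes with 50 to 1000 reads, the range in which all 19 fell. The median log2 ratio of all genes of that depth was 0.02. Pcdhb13 was below 0.5 RPKM in Control and passed the filter through TRPM2-KD alone. Without it the median of the other 18 was 0.32, and 4 of them (22.2%) were at least 1.5-fold higher, where the share of all genes with 50 to 1000 reads and 0.5 or more RPKM in each library was 13.1%.

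The most abundant beta genes were higher in TRPM2-KD to differing extents. Pcdhb20 had 462 reads and 6.54 RPKM in TRPM2-KD and 355 reads and 3.98 RPKM in Control, a ratio of 1.64 (1.43 to 1.89). Pcdhb17 had 6.11 RPKM in TRPM2-KD and 4.44 in Control, a ratio of 1.38 (1.19 to 1.59). Pcdhb22 had 4.75 RPKM in TRPM2-KD and 3.90 in Control, a ratio of 1.22 (1.04 to 1.43), and its exons overlap those of Pcdhb21, so those 2 counts are uncertain.

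The others past 1.5-fold were Pcdhb7, Pcdhb16, Pcdhb12 and Pcdhb13. Pcdhb7 had 4.58 RPKM in TRPM2-KD and 2.58 in Control, a ratio of 1.78 (1.5 to 2.11). Pcdhb16 had 2.74 RPKM in TRPM2-KD and 1.45 in Control, a ratio of 1.89 (1.58 to 2.27). Pcdhb12 had 86 reads and 1.36 RPKM in TRPM2-KD against 42 reads and 0.528 RPKM in Control, a ratio of 2.58 (1.76 to 3.83), and overlaps another annotated gene. Pcdhb13 rested on 60 reads in TRPM2-KD and 38 in Control, with a ratio of 1.99 (1.30 to 3.07). The intervals of these 4 genes overlap one another, so counting error alone does not order them.

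The remaining beta genes above the filter had ratios between 0.717 and 1.36. Pcdhb14 was the one with an interval wholly below 1, with 0.866 RPKM from 62 reads in TRPM2-KD and 1.21 RPKM from 109 reads in Control, a ratio of 0.717 (0.516 to 0.988). Pcdhb11, Pcdhb9 and Pcdhb8 were also below 1, at 0.882, 0.958 and 0.980, with intervals that span 1. Below the filter, Pcdhb5 had 45 reads in TRPM2-KD and 16 in Control, a ratio of 3.55 (1.97 to 6.72), and Pcdhb4 had 43 reads in each. Beta genes are close copies of one another, and how reads that match several places were counted is not given in the sources used here, so the split between single beta genes is less certain than their sum.

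Along the array the high ratios were not in one place. Among the 7 places next to the alpha cluster, the 5 genes above the filter gave a pooled ratio of 1.44 (1.28 to 1.63) with 4 above 1, the middle 7 gave 1.10 (0.990 to 1.23) with 4 above 1, and the 7 next to the gamma cluster gave 1.41 (1.33 to 1.5) with 7 above 1. Single-exon protein-coding genes of 2 kb or longer outside the family with 50 to 1000 reads, 96 in number, had a median log2 ratio of 0.06, with 16.7% at least 1.5-fold higher and 19.8% lower. The beta genes are likewise single-exon in the annotation apart from Pcdhb22.

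**Figure D3:**
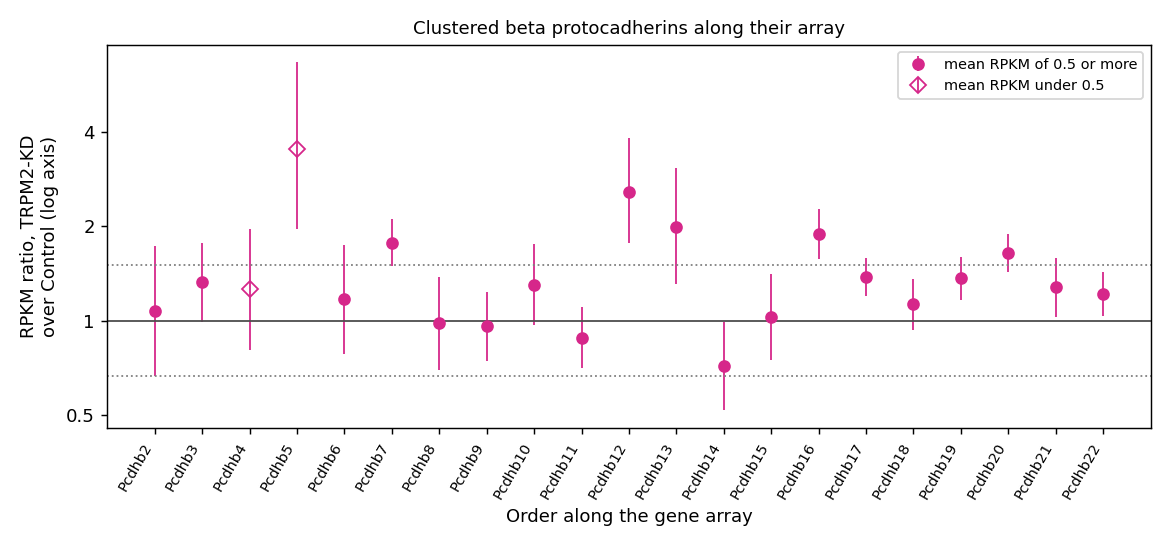
Ratio of RPKM in TRPM2-KD to that in Control (log axis) for the 21 beta protocadherin genes in their order along the chromosome, with 95% counting intervals of 1 library per group. Open diamonds are genes with a mean under 0.5 RPKM. In the middle of the array 3 of 7 ratios fell below 1, and at the gamma end 0 of 7 did.

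The alpha and gamma clusters lie on either side of the beta array, and each is present as a single line, named Pcdha2 and Pcdhga9. Both lines were close to equal and slightly lower in TRPM2-KD. Pcdhga9 had 12918 reads in TRPM2-KD and 17039 in Control, or 23.8 and 24.9 RPKM, a ratio of 0.956 (0.934 to 0.978). Pcdha2 had 2136 reads and 4.16 RPKM in TRPM2-KD and 2820 reads and 4.36 RPKM in Control, a ratio of 0.955 (0.902 to 1.01). The RPKM values imply gene lengths of 26.1 kb for Pcdhga9 and 24.7 kb for Pcdha2, where the beta genes have 2.34 to 7.14 kb, and a later annotation gives the same 2 identifiers other isoform names whose exons overlap 25 and 13 further genes. These lines therefore cannot be read as single isoforms. In that annotation all exons of the alpha cluster cover 38.2 kb and those of the gamma cluster 60.8 kb. The lines therefore cannot be read as whole clusters either, and which part they count is not known. Nor can their levels be set beside those of single beta genes. Over all 21 clustered entries above the filter the median log2 ratio was 0.28, with 15 above 1 and 6 below.

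The non-clustered protocadherins, single genes with long extracellular domains and brain-region-specific expression, were near equal. Of 12 listed, 11 passed the filter, 7 had a ratio above 1 and 4 below, and the median log2 ratio was 0.12. Past 1.5-fold were 0 in either direction. Of the 11, 8 had over 1000 reads, where 0.752% of all genes were at least 1.5-fold higher and 0.573% lower. The count of 0 is thus near the share of all genes of that depth. Pcdh8 (arcadlin), a synaptic protocadherin, had 16.5 RPKM in TRPM2-KD and 17.4 in Control, a ratio of 0.952 (0.887 to 1.02). Pcdh10, a protocadherin of axon growth, had 10.6 RPKM in TRPM2-KD and 9.51 in Control, a ratio of 1.11 (1.05 to 1.18). Pcdh1 had 8.26 RPKM in TRPM2-KD and 8.72 in Control, a ratio of 0.947 (0.884 to 1.01).

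Intervals wholly above 1 were found for Pcdh18, Pcdh10 and Pcdh11x, 3 of 11 (27.3%), near the 28.1% of all genes above the filter. Wholly below 1 were 0 of the 11, against 28.2% of all genes. Pcdh18 had 835 reads and 7.76 RPKM in TRPM2-KD against 782 reads and 5.77 RPKM in Control, a ratio of 1.35 (1.22 to 1.49). Pcdh11x, on the X chromosome, had 1.13 RPKM in TRPM2-KD and 0.892 in Control, a ratio of 1.27 (1.05 to 1.55). Pcdh19, whose human counterpart is an epilepsy gene, had 6.20 RPKM in TRPM2-KD and 6.34 in Control, a ratio of 0.977 (0.909 to 1.05). Pcdh9, Pcdh17, Pcdh7, Pcdh12 and Pcdh20 had intervals that span 1 and ratios between 0.912 for Pcdh9 and 1.2 for Pcdh20. Pcdh12, an endothelial protocadherin, had 2.91 RPKM in TRPM2-KD and 2.69 in Control, where Cdh5 was slightly lower in TRPM2-KD. Pcdh15, the tip-link partner of Cdh23, was below the filter with 63 reads in TRPM2-KD and 54 in Control, a ratio of 1.47 (1.01 to 2.16).

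The Celsr genes, mammalian counterparts of the fly planar polarity cadherin Flamingo, were among the most abundant members and were near equal. Celsr3, needed for axon tracts of the forebrain, had the highest level of all members, 41.7 RPKM in TRPM2-KD and 39.6 in Control, a ratio of 1.05 (1.02 to 1.08). Celsr2, which acts in cilia of ependymal cells, had 32.1 RPKM in TRPM2-KD and 31.9 in Control, a ratio of 1.01 (0.977 to 1.04). Celsr1, the member of neural tube closure, had 13.9 RPKM in TRPM2-KD and 13.4 in Control, a ratio of 1.03 (0.986 to 1.08). All 3 intervals are narrow, with 3190 reads in TRPM2-KD and 3891 in Control for Celsr1, the least abundant of them.

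The Fat cadherins were higher in TRPM2-KD in each of the 3 measured genes, with intervals wholly above 1 in all 3. Such an interval was found for 28.1% of all genes above the filter. Intervals narrow with depth, and the share at the depth of these 3 genes was not computed. Fat3, which shapes dendrites in the retina, had 3676 reads and 9.57 RPKM in TRPM2-KD against 3605 reads and 7.44 RPKM in Control, a ratio of 1.29 (1.23 to 1.35). Fat1, which lies at apical junctions of cortical radial glia, had 7.37 RPKM in TRPM2-KD and 6.07 in Control, a ratio of 1.21 (1.15 to 1.29). Fat4, the receptor of the Dachsous ligand Dchs1, had 17 RPKM in TRPM2-KD and 15.4 in Control, a ratio of 1.10 (1.07 to 1.14). The ligand gene Dchs1 had 37.6 RPKM in TRPM2-KD and 34.7 in Control, a ratio of 1.08 (1.05 to 1.12). The 3 Fat genes pooled gave 1.17 and the 3 Celsr genes 1.03, and 0 of these 6 genes were past 1.5-fold. All 6 had over 1000 reads, where 0.752% of all genes were at least 1.5-fold higher and 0.573% lower. Fat2 was below the filter with 55 reads in TRPM2-KD and 43 in Control, a ratio of 1.61 (1.06 to 2.46). Exons of 13 members overlap another gene in the annotation, Fat1, Fat4, Celsr3, Cdh8, Pcdh8, Pcdh10 and Pcdh19 among them, and their counts are uncertain to that extent.

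**Figure D4:**
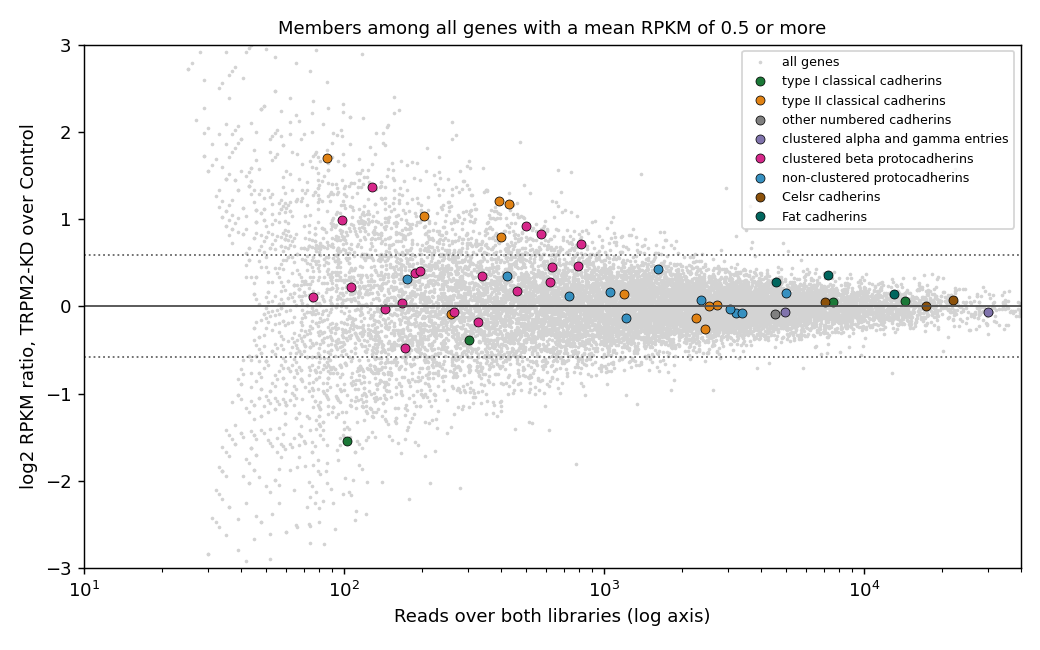
Log2 ratio of TRPM2-KD to Control against the reads summed over both libraries (log axis), with genes of a mean of 0.5 or more RPKM in grey, apart from a few beyond the axes, and the members coloured by class. Members past 1.5-fold lay among the genes with 50 to 1000 reads, where the grey cloud is wider than at greater depth, and the members with over 1000 reads lay within 1.5-fold of equal.

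Genes that work with these cadherins differed little. Of all genes above the filter, 7.85% were at least 1.5-fold higher and 6.6% lower, and of those with over 1000 reads 0.752% and 0.573%. Most genes in the lists of partners had over 1000 reads, so counts of 0 past 1.5-fold say little about them. Of 11 catenins and other tail-binding partners above the filter, 4 had a ratio above 1 and 7 below, 0 were past 1.5-fold, and the median log2 ratio was -0.02. Ctnnb1, encoding β-catenin, had 213 RPKM in TRPM2-KD and 223 in Control, a ratio of 0.955 (0.939 to 0.972). Jup, encoding its relative plakoglobin, had a ratio of 0.802 (0.733 to 0.876), while Dlg5 and Vcl (vinculin) were at 1.23 and 1.21. Nectins and further adherens junction genes had a median of -0.03 over 13 genes with 0 past 1.5-fold, from Pard3 at 0.82 and Pard6b at 0.840 to Pvrl3 at 1.29.

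Of 15 planar polarity genes above the filter, 10 were above 1 and 5 below, with 0 past 1.5-fold, a median of 0.07, and the widest ratios in Fzd3 (1.35), Vangl1 (1.23) and Dvl2 (0.813). The 10 shedding and processing genes had a median of 0.19 with 0 past 1.5-fold. Among them Aph1a and Psenen, both subunits of γ-secretase, had 1.43 and 0.673, and the sheddase gene Adam17 1.39. The 16 genes of chromatin regulators that act on the protocadherin clusters had a median of 0.03 with 0 past 1.5-fold. Of these the cohesin loader gene Nipbl had a ratio of 1.21 and the cohesin genes Stag2 and Rad21 had 1.2 and 1.15, while the cohesin genes Stag1 and Smc1a had 0.897 (0.844 to 0.953) and 0.946 (0.911 to 0.983).

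Of 12 genes for cytoplasmic partners of protocadherins, 9 were above 1, the median was 0.09, and 1 was at least 1.5-fold higher, the kinase gene Ptk2b at 1.85 (1.45 to 2.37). The WAVE complex genes Cyfip1 and Nckap1 had 1.17 and 1.14. The 5 measured repressors of cadherin genes had a median of 0.21, with Zeb1 at 1.16, Zeb2 at 1.17 and Foxc2, a gene of mesenchyme, at 0.488. Foxc2 was the 1 of these 5 at least 1.5-fold lower, against 6.6% of all genes. It had 24 reads in TRPM2-KD and 62 in Control, and passed the filter through Control alone. The 5 measured members of the superfamily outside the symbol rule had a median of 0.02, with Clstn2 at 1.17, Dchs1 as above and Cdhr1 at 0.913. Integrins, the receptors for matrix, had a median of 0.18 over 16 genes, 11 above 1, with 1 at least 1.5-fold lower, Itga10 at 0.578. Itga9 was at 1.46 and Itga8, below 0.5 RPKM in TRPM2-KD, at 0.703.

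Markers of other cells differed between the libraries in both directions. For the counts past 1.5-fold given here, 7.85% of all genes above the filter were higher and 6.6% lower. Among genes with 50 to 1000 reads the shares were 14.9% and 12.9%. Microglia and macrophage markers summed to 262 RPKM in TRPM2-KD and 173 in Control, with 14 of 15 above 1, 9 at least 1.5-fold higher and a median log2 ratio of 0.60. Cajal-Retzius markers summed to 71.2 RPKM in TRPM2-KD and 59.3 in Control, with 9 of 10 above 1. Radial glia markers had a median of 0.15 with 10 of 14 above 1. Below equal on balance were neuron markers, with a median of -0.13 and 11 of 15 below 1, interneuron markers at -0.19 with 10 of 12 below 1, and intermediate progenitor markers at -0.06 with 8 of 10 below 1. Mural cell, oligodendrocyte lineage and erythroid markers had medians of 0.08, 0.09 and 0.03, with members far to either side. The highest ratio of all lists was 69.7 for the erythroid gene Hbb-bt, with 166 reads in TRPM2-KD and 3 in Control. Its relative Hbb-bs had a ratio of 1.11. At least 1.5-fold higher were 1 of 10 mural markers, 2 of 6 oligodendrocyte lineage markers and 3 of 9 erythroid markers. At least 1.5-fold lower were 1 mural, 1 oligodendrocyte lineage and 2 erythroid markers. The 3 higher erythroid markers, Hbb-bt, Hba-x and Slc4a1, were below 0.5 RPKM in Control and passed the filter through TRPM2-KD alone. So did Gpr17, 1 of the 2 higher oligodendrocyte lineage markers, at 0.484 RPKM in Control. No gene of these lists that is in the table had 0 reads in a library. The part of these cells in the ratios of the type II cadherins, the beta protocadherins and the Fat genes was not tested.

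The authors' deposited table holds its own comparison of the 2 libraries. By the rule of the study's design text, an unadjusted p under 0.05 with a log2 fold change beyond 1 in either direction, 3 of the 60 members (5.0%) passed in the authors' deposited table, against 3.84% of all 16103 genes. There the log2 fold change was 1.82 for Pcdhb5 with p 0.0244, 1.70 for Cdh9 with p 0.0263, and -1.54 for Cdh3 with p 0.0447. In the authors' deposited table the adjusted p of these genes was 0.870, 0.923 and 1.0, and 0 of the 60 had an adjusted p under 0.05. How a spread was set there from 1 library per group is not given in the sources used here. All 3 genes lay below 0.5 RPKM in 1 of the libraries.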

How the data were processed

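RNA from 1 TRPM2-KD and 1 Control library of sorted cortical cells was compared. Per the file headers, the deposited table gives for each gene a read count and an RPKM value per library. The deposited counts are whole reads, and the deposited RPKM values equal the count times a constant per gene within a library. It also gives the authors' log2 fold change, log2 CPM, p-value and adjusted p-value, per the file headers. The tool behind these is not given in the sources used here, nor are the annotation release and how strand and multiply matching reads were handled. The submitters' processing notes name HTSeq 0.6.0, TopHat2 2.0.12, Bowtie2 2.2.3 and build mm9 without saying what each was used for. The lowest value that any gene reached in its higher library was 1.01 CPM.

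Ratios of RPKM, TRPM2-KD over Control, were computed with Python 3.11.15 and scipy 1.17.1 for genes with a mean of 0.5 or more RPKM, and a difference of 1.5-fold was counted. Intervals are exact conditional binomial 95% intervals of the counts, which cover counting error only. They treat reads as independent, though reads made by PCR are not independent molecules, so they may be too narrow even for that. They were checked on simulated independent counts, which tests the computation and not how well they hold for these libraries. Full values are given for the 3 most abundant members of each class, those past 1.5-fold, and Cdh1, Cdh2, Cdh4, Cdh5 and Celsr1 to Celsr3, and of each list of partners for the 3 genes with the widest ratios. Members named beyond that, with genes of the marker lists, were chosen after their values were seen. The members and lists were chosen with earlier results of these data known. Alternatives were other filters, folds, added constants and scalings (TMM factors of edgeR 4.0.16 and median-of-ratios factors). The comparison with genes of 50 to 1000 reads and the filter of 0.5 RPKM in each library were added after the data were seen. Exon overlaps are from GENCODE M21, a later annotation that holds 98.9% of the identifiers, and promoters and gene order are from RefSeq on GRCm38.p6.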

Additional observations from a re-analysis of the deposited data

How the results depend on the processing

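No paired analysis was possible because each group has 1 library, and for the same reason no library could be left out. Of 54 members, 10 were at least 1.5-fold higher and 1 lower, together 11, against 7.85% and 6.6% of all genes. With a mean of 1 or more RPKM as the filter, 7 of 47 members were past 1.5-fold in all and 0 were lower. On log2(RPKM + 1), which understates differences of low genes, 6 of 54 were past 1.5-fold in all, 6 higher and 0 lower. At 5/4-fold, 21 of 54 members were past in all, 18 higher and 3 lower. At 2-fold, 6 of 54 were past in all and 5 of them higher. With 0.5 or more RPKM asked of each library, 8 of 51 were past 1.5-fold, 8 higher and 0 lower. All genes under that filter gave 6.39% and 5.17%. With no filter or with 50 or more reads, 14 of 60 were past 1.5-fold. With no filter, 9.54% of all listed genes were higher and 7.99% lower. The shares of all genes under the other settings were not computed, so those counts have no background here. The median log2 ratio of the clustered protocadherins was 0.28, with 0.21 on log2(RPKM + 1) as the lowest and 0.33 as the highest of its alternatives. For the beta genes alone it was 0.35, and 0.21 to 0.35 under the alternatives, lowest on log2(RPKM + 1). TMM and median-of-ratios scaling shifted all log2 ratios by 0.0008 and 0.0017. On log2(RPKM + 1), 22 of 31 named members stayed within the counting interval and 9 moved out of it. An added constant cannot change the direction of a ratio. Under TMM and median-of-ratios scaling all 31 stayed within it, as shifts this small could not move them out. The 1.5-fold calls rest on genes with fewer than 1000 reads, and Cdh3, Cdh9 and Pcdhb13 are below 0.5 RPKM in 1 library.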
